A study of Mus musculus with 12 samples.

Results

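Hepatocytes that line the central vein of the liver lobule express a set of genes that depends on Wnt signalling, and 10 of them were followed here across 3 diet groups. They were taken by name from the deposited gene table of 19252 genes. They are Lect2, Rnf43, Axin2, Znrf3, Lgr5, Tbx3, Glul, Cyp2e1, Cyp1a2 and Gulo. All 10 had a row in that table, and all 10 were among the 11376 genes that reached 1 TPM in at least 4 libraries and were tested. TPM is a length-corrected share of the transcripts of a library, so that levels can be set beside each other between genes of a library. Between libraries such a share also depends on the other transcripts, and the most abundant transcript made up 23.5% to 29.6% of a library. Results under other scalings are given at the end. The 12 libraries are total RNA of C57BL/6 mouse liver. In NAC_HFD the mice were given a high fat diet and drinking water with 2 g per L of N-acetylcysteine, a cysteine precursor that feeds glutathione synthesis. In HFD they were given the high fat diet alone and in NFD a normal fat diet, and each group has 4 libraries. Feeding ran for 14 weeks in all groups, and the age on the labels is 8 weeks, at a point that they do not name. No genetic change is named for any group, and the labels do not say in words that each library is a separate animal. The p-values below therefore measure the spread between these samples, which may be in part technical.

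In this tissue, Wnt ligands and R-spondin made by the endothelium of the central vein bind Frizzled and LRP receptors on the nearest hepatocytes, which stabilises beta-catenin and lets it act with TCF/LEF factors on DNA. R-spondin bound to LGR receptors removes RNF43 and ZNRF3, the membrane ubiquitin ligases that otherwise clear Frizzled from the cell surface. Both ligases and the scaffold AXIN2 are themselves Wnt targets and act as negative feedback. The metabolic side of the programme comprises glutamine synthetase and cytochromes P450 of drug oxidation, and it gives way to periportal enzymes of urea synthesis and gluconeogenesis at the other end of the lobule. The data are bulk tissue, in which fewer cells of a type and less RNA per cell cannot be told apart.

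In brief, Lect2, Cyp2e1 and Gulo rose and Rnf43 fell in NAC_HFD against NFD, where 5.28% of all tested genes passed. Lect2 alone of the 10 genes also passed the test in HFD against NFD, where 2.78% of all tested genes did. Between NAC_HFD and HFD 0 of the 10 genes and 0% of all tested genes passed in limma. The feedback genes Axin2 and Znrf3, the receptor gene Lgr5 and the pericentral marker Glul passed in no comparison, and neither did Tbx3 or Cyp1a2.

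Stretches upstream of 3 of the genes that changed are shown because the genes are grouped as Wnt targets, and Lect2 and Cyp2e1 rose while Rnf43 fell. Each window runs from 250 bases before to 50 bases after an annotated transcript start in RefSeq on build GRCm38.p6 and is written 5′ to 3′ on the strand of the gene. Capitals mark a match to a core TCF/LEF-type motif. The motif CTTTGAT and its variants were searched on both strands, and the variants were the motif CTTTGAA, the motif CTTTGTT and the motif CTTTGTA, of which a place on a strand can match at most 1. The Lect2 window is chr13:56548489-56548788 on the minus strand, the Cyp2e1 window is chr7:140763569-140763868 on the plus strand, and the Rnf43 window is chr11:87662837-87663136 on the plus strand.
Lect2: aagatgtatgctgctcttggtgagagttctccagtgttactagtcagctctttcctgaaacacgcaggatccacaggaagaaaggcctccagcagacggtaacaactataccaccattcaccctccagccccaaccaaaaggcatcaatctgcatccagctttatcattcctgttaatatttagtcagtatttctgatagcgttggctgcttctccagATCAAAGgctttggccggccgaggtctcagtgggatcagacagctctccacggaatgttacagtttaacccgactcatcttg
Cyp2e1: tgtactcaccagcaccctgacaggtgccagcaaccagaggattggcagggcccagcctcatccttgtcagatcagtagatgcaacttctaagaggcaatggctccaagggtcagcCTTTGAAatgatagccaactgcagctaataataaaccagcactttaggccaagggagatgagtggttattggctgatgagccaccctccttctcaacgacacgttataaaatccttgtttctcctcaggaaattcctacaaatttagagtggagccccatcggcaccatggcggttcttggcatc
Rnf43: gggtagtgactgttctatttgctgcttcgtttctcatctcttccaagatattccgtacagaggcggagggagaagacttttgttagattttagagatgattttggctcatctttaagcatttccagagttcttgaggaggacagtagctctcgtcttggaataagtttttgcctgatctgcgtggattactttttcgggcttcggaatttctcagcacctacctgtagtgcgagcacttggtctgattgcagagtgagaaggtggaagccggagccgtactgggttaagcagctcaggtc
The Lect2 window holds CTTTGAT, on the strand opposite to the gene, 32 to 26 bases before the start. This motif occurs in 3.73% of the 32851 windows of the same length. The Cyp2e1 window holds CTTTGAA 135 to 129 bases before the start, and Cyp1a2 holds it, on the opposite strand, 244 to 238 bases before its start. CTTTGAA occurs in 5.14% of all windows, and any of the 4 motifs in 16.9%. Neither of the Rnf43 windows holds a match, nor do the windows of Axin2 and Glul. An entry in the sequence table was found for 6 of the genes, with 7 windows. Gulo, Znrf3, Lgr5 and Tbx3 had none. A match describes letters only and does not show binding.

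The 10 genes cover a wide range of levels. Cyp2e1, which oxidises ethanol and many small drugs, was the 11th most abundant of the tested genes by mean TPM over all 12 libraries, at 7614 TPM. Glul followed at 540 TPM, Cyp1a2 at 276 TPM, Gulo at 184 TPM and Lect2 at 126 TPM. The regulators were lower, with Tbx3 at 19.9 TPM, Rnf43 at 14.7 TPM, Znrf3 at 6.84 TPM, Axin2 at 4.46 TPM and Lgr5 at 1.97 TPM. Neighbours in this order whose ranges over the libraries overlapped were Cyp1a2 and Gulo, Gulo and Lect2, Tbx3 and Rnf43, Znrf3 and Axin2, and Axin2 and Lgr5. Cyp1a2 nonetheless exceeded Gulo in 12 of 12 libraries, whereas Tbx3 exceeded Rnf43 in 9 of 12. Lgr5, which ranked 9843 among the 11376 tested genes, lay near the floor of the test.

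**Figure D1:**
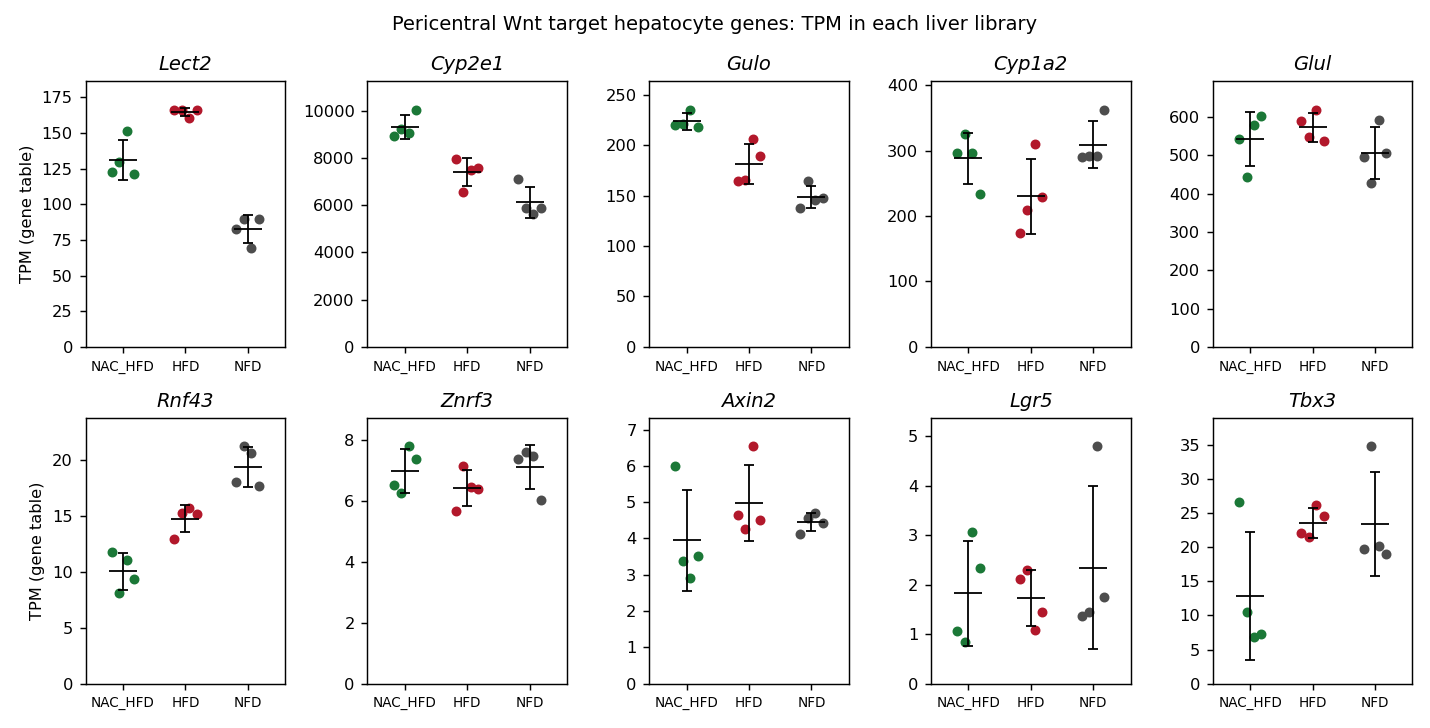
TPM of each of the 10 genes in each liver library, with groups NAC_HFD, HFD and NFD from left to right, each point a library, the long bar the mean and the error bar the SD (n = 4 per group). The vertical axes start at 0 and differ between genes. In TPM as deposited, Lect2, Rnf43 and Gulo show groups that do not overlap in any comparison. NAC_HFD replicate 1 of Tbx3 lies at 26.7 TPM, apart from the other 3 NAC_HFD libraries.

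Rnf43, the ubiquitin ligase that clears Frizzled receptors, lay at 11.78, 8.10, 11.03 and 9.33 TPM in NAC_HFD livers, at 13.0, 15.3, 15.7 and 15.2 TPM in HFD livers and at 18.1, 21.2, 20.6 and 17.7 TPM in NFD livers. Every NAC_HFD library was below every HFD library, and every HFD library below every NFD library. The means were 10.1 ± 1.66 TPM in NAC_HFD, 14.8 ± 1.22 TPM in HFD and 19.4 ± 1.79 TPM in NFD (SD, n = 4 each). On the log2(TPM + 1) scale, on which the gene fold changes of this fit are given, Rnf43 fell by 0.89 ± 0.11 (SE) in NAC_HFD against NFD. Its adjusted p was 0.00328 in limma's moderated test with Benjamini-Hochberg adjustment over all tested genes. Only 5 of the 11376 tested genes had a smaller p in that comparison. Against HFD, NAC_HFD differed by -0.52 ± 0.11, which did not pass the threshold of 0.05 (limma, adjusted p = 0.0646). It passed without NAC_HFD replicate 1 (limma, adjusted p = 0.0453). The difference of HFD from NFD was -0.37 ± 0.11 (limma, adjusted p = 0.0980).

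The RNA counted under Rnf43 is in large part annotated as noncoding. The gene has 4 mRNA transcripts and 3 transcripts in the deposited lncRNA table, and these noncoding transcripts made up 50.4% ± 6.88 of its TPM in NAC_HFD, 51.4% ± 2.63 in HFD and 54.0% ± 3.65 in NFD (SD, n = 4 each). The most abundant of them, ENSMUST00000134684, stood at 5.29, 2.91, 4.77 and 3.70 TPM in NAC_HFD, at 6.04, 7.11, 7.09 and 5.72 TPM in HFD and at 7.77, 8.16, 9.0 and 8.67 TPM in NFD. Its groups followed the same order as the whole gene without overlap. The 4 mRNA transcripts together gave 5.38, 3.43, 5.86 and 5.36 TPM in NAC_HFD, 6.55, 7.60, 7.02 and 7.47 TPM in HFD and 7.54, 9.95, 10.4 and 7.92 TPM in NFD. Here too the NAC_HFD libraries were lowest, but NFD replicate 1 lay within the HFD range. With mRNA transcripts alone the decrease in NAC_HFD against NFD was smaller and still passed, at -0.73 (limma, adjusted p = 0.0165). The values were -0.46 in NAC_HFD against HFD (limma, adjusted p = 0.164) and -0.28 in HFD against NFD (limma, adjusted p = 0.316). No single Rnf43 mRNA transcript passed the test on transcripts.

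**Figure D2:**
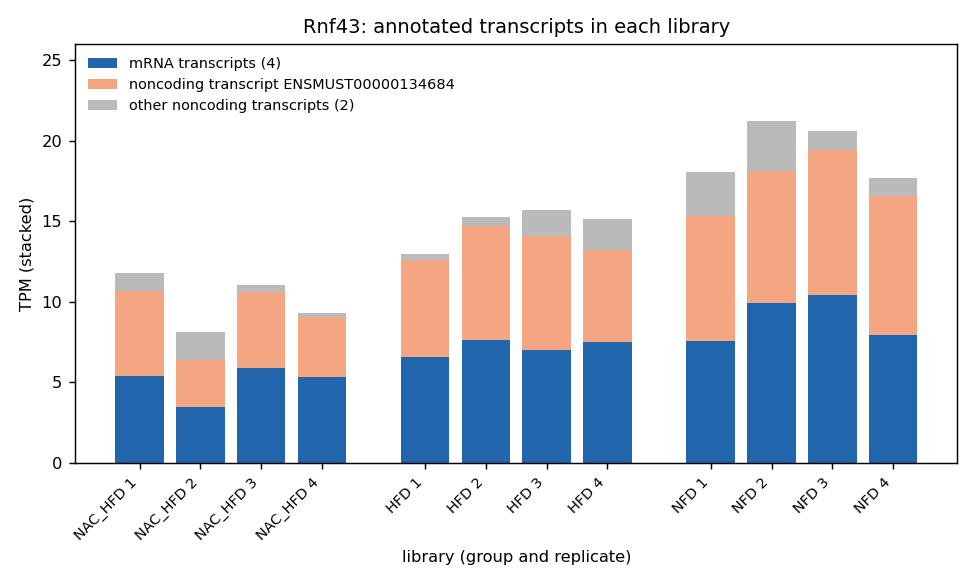
TPM of the annotated Rnf43 transcripts stacked for each library, NAC_HFD on the left, HFD in the middle and NFD on the right. The 4 mRNA transcripts and the noncoding transcript ENSMUST00000134684 are both lower in the NAC_HFD libraries, and noncoding transcripts make up 50.4% of the stack on average in NAC_HFD and 54.0% in NFD.

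Znrf3, the ligase related to Rnf43, showed no such order. It stood at 6.52, 6.26, 7.79 and 7.37 TPM in NAC_HFD, at 5.68, 7.13, 6.46 and 6.37 TPM in HFD and at 7.36, 7.59, 7.47 and 6.03 TPM in NFD, and all 3 groups overlapped. Its difference in NAC_HFD against NFD was -0.02, with a 95% confidence interval of -0.24 to 0.20 (limma, adjusted p = 0.919). The intervals were -0.11 to 0.33 in NAC_HFD against HFD and -0.35 to 0.09 in HFD against NFD. Whether Znrf3 and Rnf43 differed in their change was not tested.

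Axin2, a scaffold of the beta-catenin destruction complex that is widely read as a Wnt reporter, lay at 6.00, 3.38, 2.92 and 3.51 TPM in NAC_HFD, at 4.64, 4.25, 6.54 and 4.51 TPM in HFD and at 4.11, 4.55, 4.70 and 4.42 TPM in NFD. The other 3 NAC_HFD libraries lay below all HFD and NFD libraries, and NAC_HFD replicate 1 was above all NFD libraries. The difference was -0.30 in NAC_HFD against HFD, with a 95% confidence interval of -0.65 to 0.06 (limma, adjusted p = 0.383). It was -0.17 in NAC_HFD against NFD (limma, adjusted p = 0.560) and 0.12 in HFD against NFD (limma, adjusted p = 0.733). Lgr5, a receptor for R-spondins and a marker of hepatocytes next to the central vein, ranged over 0.840 to 3.07 TPM in NAC_HFD, 1.09 to 2.29 TPM in HFD and 1.37 to 4.8 TPM in NFD. At this level its libraries scattered more than its groups differed, and the interval in HFD against NFD ran from -0.90 to 0.48.

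Tbx3, a T-box transcription factor that is a Wnt target in liver, was at 26.7, 10.5, 6.87 and 7.23 TPM in NAC_HFD, at 22.1, 21.5, 26.2 and 24.5 TPM in HFD and at 19.7, 34.8, 20.2 and 19.0 TPM in NFD. NAC_HFD replicate 1 was above all HFD libraries, and the other 3 NAC_HFD libraries lay below all 8 libraries of HFD and NFD. With all libraries the difference was -1.03 ± 0.35 (SE) in NAC_HFD against HFD (limma, adjusted p = 0.186) and -0.98 ± 0.35 in NAC_HFD against NFD (limma, adjusted p = 0.122), and neither passed. Without NAC_HFD replicate 1 the differences were -1.43 (limma, adjusted p = 0.0169) and -1.39 (limma, adjusted p = 0.00491). The call for Tbx3 thus rests on whether that library is kept. In HFD against NFD the difference was 0.05, with an interval of -0.71 to 0.81.

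NAC_HFD replicate 1 also differed from the other libraries of its group in markers of other liver cells. The mean log2(TPM + 1) of 7 stellate cell markers was 3.19 in it, against 2.48 to 2.93 in the other NAC_HFD libraries, and that of 7 central vein endothelial markers was 1.78, against 1.33 to 1.45. The stellate cell mean ran from 2.77 to 3.03 in HFD and from 2.54 to 3.07 in NFD. The central vein mean ran from 1.48 to 1.78 in HFD and from 1.33 to 1.79 in NFD, so that NAC_HFD replicate 1 lay within the NFD range there. The same library was highest of its group for Kupffer cell markers (3.53, against 2.62 to 3.26) and macrophage markers (1.45, against 1.05 to 1.14). It was also highest for T and NK cell markers, and narrowly for sinusoidal endothelial and adipocyte markers. For hepatocyte, cholangiocyte, erythroid and B cell markers it lay within the range of the others, and for neutrophil markers it was lowest. The part of these markers in the values of Tbx3 and Axin2 was not tested. Noncoding transcripts made up 19.1% ± 11.7 of Tbx3 TPM in NAC_HFD, 22.2% ± 6.08 in HFD and 25.2% ± 9.26 in NFD.

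Among the hepatocyte enzymes Cyp2e1 and Gulo rose in NAC_HFD against NFD, and Cyp1a2 and Glul did not pass. Cyp2e1 lay at 8937, 9239, 9063 and 10053 TPM in NAC_HFD, at 7956, 6558, 7491 and 7560 TPM in HFD and at 7096, 5891, 5627 and 5898 TPM in NFD. All NAC_HFD libraries were above all HFD and all NFD libraries, while HFD and NFD overlapped. The means were 9323 ± 502 TPM in NAC_HFD, 7391 ± 592 TPM in HFD and 6128 ± 658 TPM in NFD (SD, n = 4 each). Cyp2e1 rose by 0.61 ± 0.11 (SE) in NAC_HFD against NFD (limma, adjusted p = 0.00816), so that its mean was 52.1% higher. The difference was 0.34 ± 0.11 in NAC_HFD against HFD (limma, adjusted p = 0.149) and 0.27 ± 0.11 in HFD against NFD (limma, adjusted p = 0.178). Nearly all of the RNA came from a single mRNA transcript, ENSMUST00000026552, which rose by 0.63 in NAC_HFD against NFD in the test on transcripts (limma on log2(TPM + 0.1), adjusted p = 0.0258). A minor mRNA transcript, ENSMUST00000209253, made up 1.49% ± 0.58 of Cyp2e1 TPM in NAC_HFD, 2.34% ± 0.22 in HFD and 3.24% ± 0.56 in NFD.

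Gulo encodes L-gulonolactone oxidase, which catalyses the last step of ascorbate synthesis in mice. It lay at 220.0, 220.7, 235.2 and 217 TPM in NAC_HFD, at 164, 165, 206 and 189 TPM in HFD and at 137, 164, 145 and 147 TPM in NFD. In TPM as deposited the 3 groups did not overlap, although NFD replicate 2 and HFD replicate 1 differed by less than 0.1 TPM. The median-of-ratios factors of these libraries were 1.014 and 1.045. Divided by them, NFD replicate 2 lay above HFD replicate 1, so HFD and NFD overlapped on that scale. Gulo rose by 0.59 ± 0.10 (SE) in NAC_HFD against NFD (limma, adjusted p = 0.00666), with means of 223 ± 8.02 TPM and 149 ± 11.3 TPM. The difference was 0.31 ± 0.10 in NAC_HFD against HFD (limma, adjusted p = 0.154) and 0.28 ± 0.10 in HFD against NFD (limma, adjusted p = 0.137). Among 6 other genes of ascorbate synthesis and transport, all tested, the ascorbate transporter Slc23a2 rose in NAC_HFD against NFD (0.66, limma adjusted p = 0.0164) and the transporter Slc23a1 rose in HFD against NFD (0.77, limma adjusted p = 0.0310). The Slc23a1 call was lost in 6 of 8 fits that left out a library, and in 8 of 18 alternative fits in all. Over all tested genes 1.76% rose in NAC_HFD against NFD and 2.19% in HFD against NFD. Rgn, which encodes the gluconolactonase upstream of Gulo, was at 492 ± 47.3 TPM in NAC_HFD, 506 ± 26.6 TPM in HFD and 350 ± 76.8 TPM in NFD, and its adjusted p in limma was 0.0538 in NAC_HFD against NFD and 0.0555 in HFD against NFD.

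Cyp1a2, a P450 of caffeine and arylamine oxidation that also responds to the aryl hydrocarbon receptor, lay at 296, 325, 297 and 234 TPM in NAC_HFD, at 173, 210, 309 and 229 TPM in HFD and at 290.1, 291.3, 291.2 and 363 TPM in NFD. HFD replicate 3 stood among the NFD values, whereas the other 3 HFD libraries lay below all NFD libraries. The difference in HFD against NFD was -0.45 ± 0.16 (SE) and did not pass (limma, adjusted p = 0.147). Without HFD replicate 3 it was -0.60 and passed (limma, adjusted p = 0.0426). NAC_HFD differed from HFD by 0.34 (limma, adjusted p = 0.303) and from NFD by -0.10 (limma, adjusted p = 0.735). Of 6 other targets of the aryl hydrocarbon receptor, 3 were tested and none passed. Nqo1, a quinone reductase, averaged 2.43 ± 0.75 TPM in NAC_HFD, 4.24 ± 0.69 TPM in HFD and 3.33 ± 0.97 TPM in NFD, and Ugt1a6a, a glucuronosyltransferase, averaged 79.4 ± 9.21 TPM in NAC_HFD, 93.3 ± 9.28 TPM in HFD and 84.7 ± 9.49 TPM in NFD. Ugt1a6a shares exons with other genes of the Ugt1a cluster, so the division of reads between them makes its level uncertain.

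Glul, glutamine synthetase, is made by the hepatocytes that border the central vein and removes ammonia that the periportal urea cycle has left. It lay at 544, 443, 580.2 and 603 TPM in NAC_HFD, at 589.8, 547, 619 and 537 TPM in HFD and at 496, 429, 593 and 505 TPM in NFD. All groups overlapped. The 95% confidence interval of the difference was -0.35 to 0.17 in NAC_HFD against HFD, -0.16 to 0.36 in NAC_HFD against NFD and -0.07 to 0.45 in HFD against NFD (limma, adjusted p = 0.760, 0.658 and 0.427). Of 8 other genes of ammonia and glutamine handling, 7 were tested and none passed in any comparison. The smallest unadjusted p-values in HFD against NFD belonged to Gls2, the liver glutaminase, and to Glud1, glutamate dehydrogenase. Gls2 averaged 85.2 ± 8.28 TPM in HFD livers and 122 ± 31.6 TPM in NFD livers, and Glud1 averaged 423 ± 23.0 TPM in HFD livers and 343 ± 65.1 TPM in NFD livers.

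Lect2 encodes a secreted protein of hepatocytes that is known as a hepatokine and as a beta-catenin target in liver. It lay at 123, 129, 152 and 121 TPM in NAC_HFD, at 166.2, 166.4, 160.4 and 166.5 TPM in HFD livers and at 82.5, 89.5, 69.1 and 89.4 TPM in NFD. In TPM as deposited, the HFD libraries lay close together and above all others. The NFD libraries were the lowest, and NAC_HFD lay between them without overlap. The median-of-ratios factors were 1.098 in HFD replicate 2 and 0.954 in NAC_HFD replicate 3. Divided by them, NAC_HFD replicate 3 lay above HFD replicate 2, so NAC_HFD and HFD overlapped on that scale. The means were 131 ± 14.1 TPM in NAC_HFD, 165 ± 2.98 TPM in HFD and 82.6 ± 9.57 TPM in NFD (SD, n = 4 each). Lect2 rose by 0.995 ± 0.10 (SE) in HFD against NFD (limma, adjusted p = 0.000324) and by 0.66 ± 0.10 in NAC_HFD against NFD (limma, adjusted p = 0.00601). NAC_HFD lay 0.33 ± 0.10 below HFD, which did not pass (limma, adjusted p = 0.149). The authors' deposited table for HFD against NFD lists its main transcript, ENSMUST00000062806, as a ratio of 2.02. Its log2 fold change there is 1.02, with an adjusted p of 3.72e-16 from a test that is not named. The test on transcripts here gave a log2 fold change of 1.01 for the same transcript (limma on log2(TPM + 0.1), adjusted p = 0.00395). The authors' deposited table also lists minor mRNA transcripts of Cyp2e1 and Znrf3 with ratios of 0.342 and 0.218, which are decreases (log2 fold changes of -1.55 and -2.20). Their adjusted p-values there are 0.0684 and 1. No transcript of the 10 genes is listed in the authors' deposited tables for NAC_HFD against HFD.

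**Figure D3:**
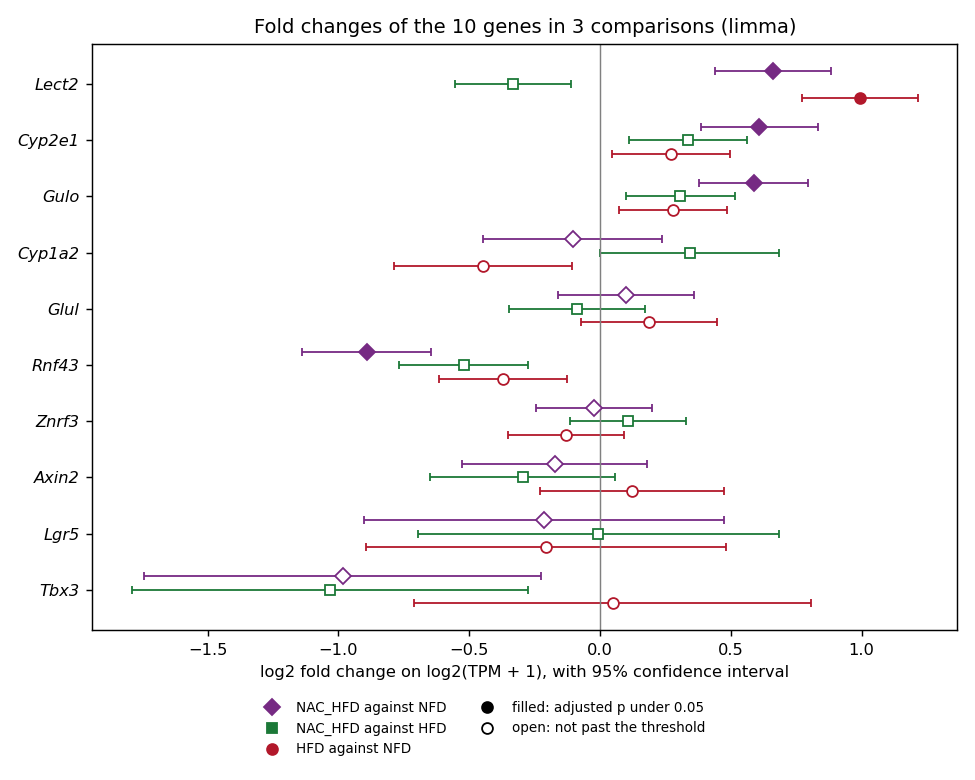
Log2 fold change of each gene on the log2(TPM + 1) scale (horizontal axis) with its 95% confidence interval from limma, for NAC_HFD against NFD (diamonds), NAC_HFD against HFD (squares) and HFD against NFD (circles). Filled symbols mark an adjusted p under 0.05, which are Lect2, Cyp2e1, Gulo and Rnf43 in NAC_HFD against NFD and Lect2 in HFD against NFD.

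Read comparison by comparison, NAC_HFD against NFD had 3 of the 10 genes higher (Lect2, Cyp2e1 and Gulo) and 1 lower (Rnf43), where 5.28% of all tested genes passed in either direction, 1.76% higher and 3.52% lower. The same 4 genes had groups that did not overlap, as did 3.52% of all tested genes upward and 8.52% downward. All counts of overlap in this paragraph are of TPM as deposited. HFD against NFD had 1 gene higher and 0 lower, where 2.78% of all tested genes passed, 2.19% higher and 0.589% lower. There 5 of the 10 genes had an unadjusted p under 0.05, against 19.1% of all tested genes, and the groups did not overlap for 2 genes above (7.78% of all tested genes) and 1 below (4.57%). NAC_HFD against HFD had 0 of the 10 genes past the threshold, as had 0% of all tested genes in limma. There 6 of the 10 genes had an unadjusted p under 0.05, against 16.4% (1870) of all tested genes, and the groups did not overlap for 2 genes above (Cyp2e1 and Gulo, 1.56% of all tested genes) and 2 below (Lect2 and Rnf43, 8.66%). Of 23 tested mRNA transcripts of the 10 genes, 3 passed in NAC_HFD against NFD, where 0.404% of all tested mRNA transcripts did, 0 in NAC_HFD against HFD (0.0192%) and 1 in HFD against NFD (0.205%). The median log2 fold change of the 10 genes was -0.06 in NAC_HFD against NFD, -0.05 in NAC_HFD against HFD and 0.09 in HFD against NFD, beside medians over all tested genes of -0.07, -0.08 and 0.01. HFD against NFD and NAC_HFD against HFD share the HFD libraries, and NAC_HFD against NFD shares a group with each of them, so the comparisons are given side by side and are not independent. The 10 genes were chosen with earlier results of these data known, so their counts beside the shares of all tested genes are description only.

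Genes upstream of these targets were followed in the same fit. Of 18 Wnt ligands, R-spondins and factors of ligand secretion, 5 were tested, among them factors of secretion, and none passed in any comparison. Wnt2, a ligand of the hepatic endothelium, averaged 1.54 ± 0.59 TPM in NAC_HFD, 1.82 ± 0.31 TPM in HFD and 1.93 ± 0.60 TPM in NFD. Rspo3, the R-spondin of the central vein, averaged 1.91 ± 0.31 TPM in NAC_HFD, 1.94 ± 0.33 TPM in HFD and 1.91 ± 0.30 TPM in NFD. Wnt2 and Rspo3 lay near the floor of the test, where the pseudocount of 1 TPM shrinks fold changes. The smallest unadjusted p-values in HFD against NFD belonged to Wnt5b (0.64, limma adjusted p = 0.148) and to the ligand acyltransferase Porcn (-0.23, limma adjusted p = 0.370). Of the 7 central vein endothelial markers 6 were tested and none passed, and their summed level was 12.2 to 19.0 TPM in NAC_HFD, 14.6 to 20.6 TPM in HFD and 12.6 to 19.1 TPM in NFD.

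Few receptor genes passed, and only in NAC_HFD against NFD, where 1.76% of all tested genes rose and 3.52% fell. Of 9 tested Frizzled, LRP and LGR genes, 2 rose and 1 fell there, and none passed in NAC_HFD against HFD or in HFD against NFD. Lgr4, an R-spondin receptor of hepatocytes, averaged 19.7 ± 1.82 TPM in NAC_HFD and 14.8 ± 1.70 TPM in NFD (0.39, limma adjusted p = 0.0327). Fzd8 averaged 7.34 ± 2.14 TPM in NAC_HFD and 4.2 ± 0.73 TPM in NFD (0.65, limma adjusted p = 0.0434). Fzd5 fell to 1.87 ± 0.35 TPM in NAC_HFD, against 2.83 ± 0.25 TPM in NFD (-0.42, limma adjusted p = 0.0329). Each of these calls was lost in 5 or 6 of 8 fits that left out a library, with adjusted p-values of up to 0.0917 for Lgr4 and 0.0897 for Fzd5 without NAC_HFD replicate 3 and up to 0.123 for Fzd8 without NAC_HFD replicate 4. Over all alternative fits the call was lost in 8 of 18 for Lgr4, 10 of 18 for Fzd8 and 9 of 17 for Fzd5.

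Among 14 genes of beta-catenin, its destruction complex and its transducers, Dvl1 and Dvl3 fell in NAC_HFD against NFD and Dvl1 fell in HFD against NFD. Both encode Dishevelled proteins, which relay the signal from Frizzled. Over all tested genes 3.52% fell in NAC_HFD against NFD and 0.589% in HFD against NFD. Dvl1 averaged 14.1 ± 0.83 TPM in NAC_HFD, 15.7 ± 1.92 TPM in HFD and 20.5 ± 0.69 TPM in NFD, with differences of -0.51 in NAC_HFD against NFD (limma, adjusted p = 0.0111) and -0.37 in HFD against NFD (limma, adjusted p = 0.0497). The HFD against NFD call was lost in 13 of 18 alternative fits, with a limma adjusted p of up to 0.406. Among these were 7 of 8 fits that left out a library, with 0.138 without HFD replicate 4. The value in NAC_HFD against NFD was lost with mRNA transcripts alone (limma, adjusted p = 0.164). Dvl3 averaged 8.55 ± 0.48 TPM in NAC_HFD and 11.9 ± 1.11 TPM in NFD (-0.43, limma adjusted p = 0.0305). This call was lost in 6 of 8 fits that left out a library, with 0.0853 without NFD replicate 1, and in 10 of 18 alternative fits in all. Ctnnb1, which encodes beta-catenin, averaged 80.9 ± 7.54 TPM in NAC_HFD, 80.2 ± 7.08 TPM in HFD and 84.8 ± 11.4 TPM in NFD. Its interval in NAC_HFD against NFD ran from -0.30 to 0.18. Of 8 tested TCF/LEF factors and cofactors, Pygo2 fell in NAC_HFD against NFD (-0.36, limma adjusted p = 0.0472). That call was lost in 6 of 8 fits that left out a library, with 0.123 without NFD replicate 1, and in 12 of 17 alternative fits in all.

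None of 4 tested Wnt inhibitors and none of 8 tested general Wnt targets passed in any comparison. Notum, a secreted enzyme that inactivates Wnt and is itself a target, averaged 14.8 ± 1.61 TPM in NAC_HFD, 13.7 ± 1.13 TPM in HFD and 17.1 ± 2.88 TPM in NFD. Tle1, a Groucho-family corepressor, averaged 47.3 ± 11.97 TPM in NAC_HFD, 28.6 ± 4.07 TPM in HFD and 41.1 ± 6.18 TPM in NFD. Ccnd1, cyclin D1, averaged 4.79 ± 1.67 TPM in NAC_HFD, 10.1 ± 1.66 TPM in HFD and 7.07 ± 2.31 TPM in NFD, and its difference of -0.97 in NAC_HFD against HFD did not pass (limma, adjusted p = 0.0870).

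**Figure D4:**
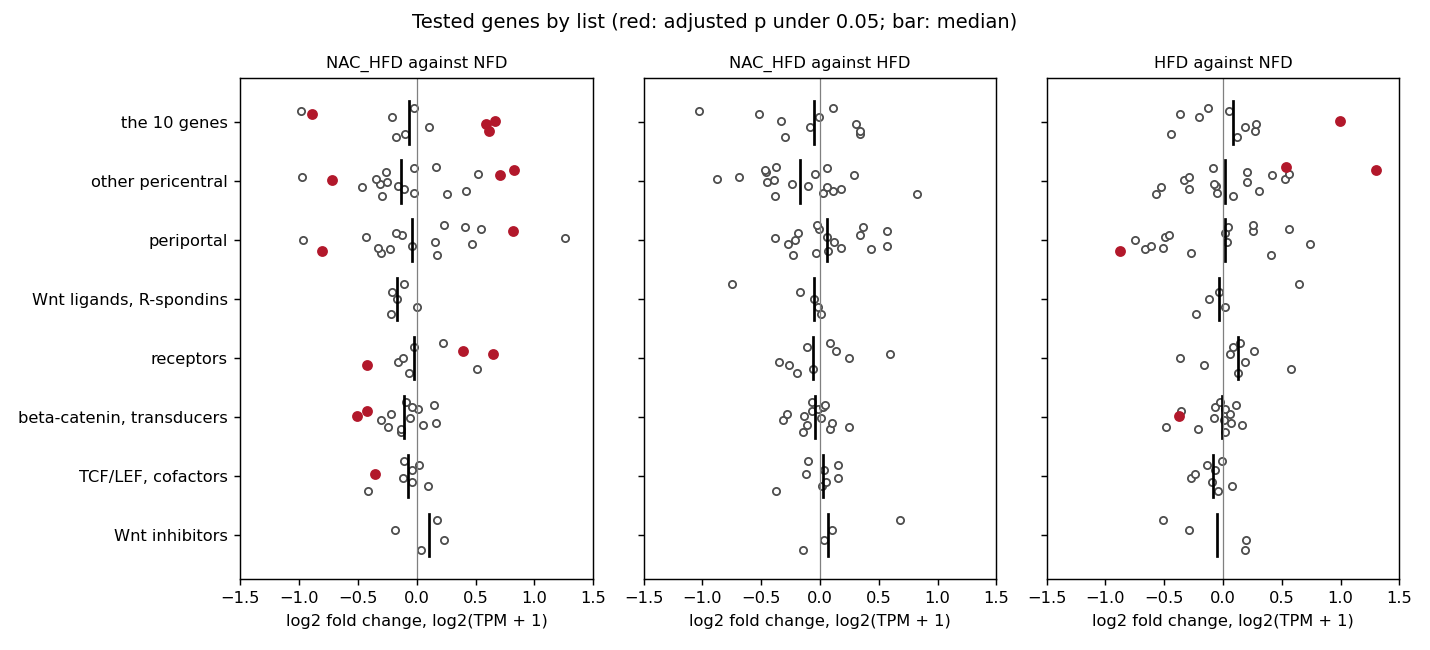
Log2 fold change on the log2(TPM + 1) scale of the tested genes of the lists shown, in NAC_HFD against NFD (left), NAC_HFD against HFD (middle) and HFD against NFD (right). The periportal gene G6pc, at 1.64 in HFD against NFD, lies beyond the edge of the right panel. General Wnt targets, targets of the aryl hydrocarbon receptor, ascorbate genes and glutamine genes are not plotted. Each point is a gene, red points have a limma adjusted p under 0.05 and the black bar is the median of the list. Red points lie on both sides of 0 in NAC_HFD against NFD, and no plotted gene is red in NAC_HFD against HFD.

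Of 20 other pericentral hepatocyte genes set beside the 10, 18 were tested. In NAC_HFD against NFD 2 rose and 1 fell, where 1.76% of all tested genes rose and 3.52% fell. In HFD against NFD 2 rose and 0 fell, where 2.19% of all tested genes rose and 0.589% fell. Slc13a3, a dicarboxylate transporter, averaged 5.63 ± 0.27 TPM in NAC_HFD, 8.29 ± 1.78 TPM in HFD and 2.76 ± 0.52 TPM in NFD, and rose in HFD against NFD (1.30, limma adjusted p = 0.000324) and in NAC_HFD against NFD (0.83, limma adjusted p = 0.00654). Por, the reductase that passes electrons to cytochromes P450, averaged 423 ± 72.4 TPM in NAC_HFD, 343 ± 19.1 TPM in HFD and 257 ± 29.0 TPM in NFD, and rose in NAC_HFD against NFD (0.71, limma adjusted p = 0.00965). Lhpp, a phosphatase, fell to 24.7 ± 4.53 TPM in NAC_HFD, against 42.4 ± 12.4 TPM in NFD (-0.72, limma adjusted p = 0.0377). Its call was lost in 6 of 8 fits that left out a library, with 0.0851 without NAC_HFD replicate 3, and in 10 of 18 alternative fits in all. The median of the tested members was -0.14 in NAC_HFD against NFD, -0.17 in NAC_HFD against HFD and 0.02 in HFD against NFD.

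Periportal genes mark the opposite end of the lobule, and a change of the list as a whole was not tested. Of 17 tested, 1 rose and 1 fell in NAC_HFD against NFD, where 1.76% of all tested genes rose and 3.52% fell. In NAC_HFD against HFD 0 passed, as did 0% of all tested genes. In HFD against NFD 1 fell, where 0.589% of all tested genes did. Asl, argininosuccinate lyase of the urea cycle, averaged 240 ± 30.2 TPM in NAC_HFD, 227 ± 13.4 TPM in HFD and 445 ± 201 TPM in NFD. It fell in NAC_HFD against NFD (-0.81, limma adjusted p = 0.0462) and in HFD against NFD (-0.88, limma adjusted p = 0.0462), and these calls were lost in 5 and 6 of 8 fits that left out a library, with 0.120 without NAC_HFD replicate 4 and 0.129 without HFD replicate 1. Hsd17b6, a hydroxysteroid dehydrogenase, rose in NAC_HFD against NFD (0.82, limma adjusted p = 0.0311), a call lost in 6 such fits, with 0.0838 without NAC_HFD replicate 3. Over all 18 alternative fits, the Asl calls were lost in 10 and 8 and the Hsd17b6 call in 7. The median of the list was -0.05 in NAC_HFD against NFD, 0.06 in NAC_HFD against HFD and 0.01 in HFD against NFD.

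By the likeness of their levels over the 12 libraries, given as Pearson's r on log2(TPM + 1) without a test, Lect2 was closest to 4931406C07Rik (0.97), Slc13a3 (0.96) and Car3 (0.95). Cyp2e1 was closest to Chac1 (0.97), Gpcpd1 (0.95) and Pigr (0.93), and Gulo to Foxo3 (0.96), F11 (0.93) and Gpcpd1 (0.92). Rnf43 was closest to Rbm4 (0.95), Dhx29 (0.92) and Tor1b (0.92). For Glul the closest were Pik3r4 (0.92), Zc3h7b (0.89) and Etfdh (0.89), and for Axin2 they were Csrp1 (0.85), Ehd2 (0.85) and Elk3 (0.85). These values share the same 12 libraries and their group differences, and the most alike of 11376 genes were picked.

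Markers of the labelled tissue and of other liver cells were read from the same table. Hepatocyte markers summed to 44733 to 63795 TPM in NAC_HFD, 44272 to 62207 TPM in HFD and 50212 to 57166 TPM in NFD, and none of 7 passed in any comparison. Kupffer cell markers summed to 65.0 to 134 TPM in NAC_HFD, 95.4 to 252 TPM in HFD and 71.3 to 138 TPM in NFD. Adipocyte markers summed to 4.16 to 6.89 TPM in NAC_HFD, 10.5 to 38.9 TPM in HFD and 4.29 to 6.90 TPM in NFD. The difference in the adipocyte sum rested largely on Cfd, at 0.91 ± 0.88 TPM in NAC_HFD, 12.2 ± 13.7 TPM in HFD and 0.20 ± 0.26 TPM in NFD. Fabp4, also on the central vein endothelial list, averaged 4.63 TPM in NAC_HFD, 6.21 TPM in HFD and 5.3 TPM in NFD and did not pass. The remaining adipocyte markers were not tested. In HFD against NFD 1 of 3 tested macrophage markers, Plac8, and 1 of 2 tested adipocyte markers, Cfd, rose, where 2.19% of all tested genes did. Their part in the values of Lect2 was not tested. The libraries resembled each other, with 10864 to 11316 genes at 1 TPM or more and a correlation within groups of 0.98 to 0.99 over genes. The 10 genes lie on chromosomes 1, 5, 7, 9, 10, 11, 13 and 14 of build GRCm38.p6, all annotated as protein coding. RefSeq places another gene over part of 5 of them. Fbxl21 lies over part of Lect2, 1110028F11Rik and Gm25968 over Rnf43, A930009A15Rik over Lgr5, Tbx3os1 over Tbx3 and Mir8114 over Glul. The sources used here do not give whether reads were assigned by strand, so reads of such pairs may not be separated. In the gene table Fbxl21 stood at 0.700 to 1.14 TPM in NAC_HFD, 0.590 to 1.07 TPM in HFD and 0.610 to 0.800 TPM in NFD.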

How the data were processed

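Per the submitters' processing notes, fastp, HISAT and RSEM were used with build GRCm38; the sources used here give no versions, settings or use of strand. The deposited gene, mRNA and lncRNA tables hold TPM made by the authors. The authors' deposited comparison tables hold ratios (fold changes), log2 fold changes and p-values per the file headers, with no test named. TPM keeps no depth, so the depth of each library is unknown and no counting interval was given. Genes with at least 1 TPM in at least 4 of 12 libraries (11376 of 19252) were put on log2(TPM + 1) and fitted with 3 group means in limma 3.58.1 (eBayes with trend and robust, R 4.3.3). Transcripts used 0.1 TPM as floor and pseudocount (31185 of 53634 mRNA transcripts). Tests were two-sided, with Benjamini-Hochberg adjustment over all tested features in a comparison and a threshold of 0.05. The fit was tested on simulated data. Groups and replicate numbers come from the labels. Deviations of same-numbered libraries correlated between -0.17 and 0.18, so the numbers were not used as pairs. The 10 genes and the gene lists were chosen with earlier results of these data known. All 10 genes are named, then genes of each pathway list past the threshold in any comparison, or else the 2 with the smallest p in HFD against NFD. For genes that passed, and for Glul and Axin2, the 3 most alike genes are named. Genes named beyond this rule (Wnt2, Rspo3, Ctnnb1, Rgn, Plac8, Cfd, Fabp4 and G6pc) were chosen after their values were seen. The list genes Wnt3, Wnt3a, Wnt10a, Rspo2, Rspo4, Tle5, Rhcg and Lep were not analysed here, and 1 gene of the pericentral list is not reported here by name. Alternatives were another pseudocount, floor and scaling, trend off, a replicate block, a fit of 2 groups only, leaving out each library, and mRNA transcripts only.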

Additional observations from a re-analysis of the deposited data

Results flagged for a closer look

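The 4 libraries of each group were screened for a library far from the others, which gave 6 among the 30 sets of gene and group, where chance flags about 1 in 20. Lect2 in HFD replicate 3, at 160.4 TPM, lay below the other HFD libraries, which were within 166.2 to 166.5 TPM. Axin2 in HFD replicate 3 was at 6.54 TPM, with the others at 4.25 to 4.64 TPM. Znrf3 in NFD replicate 4 was at 6.03 TPM, with the others at 7.36 to 7.59 TPM. Lgr5 in NFD replicate 3 was at 4.8 TPM, with the others at 1.37 to 1.76 TPM. Tbx3 in NFD replicate 2 was at 34.8 TPM, with the others at 19.0 to 20.2 TPM. Cyp1a2 in NFD replicate 4 was at 363 TPM, with the others at 290.1 to 291.3 TPM.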

How the results depend on the processing

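The counts of the 10 genes past the threshold (4 in NAC_HFD against NFD, 0 in NAC_HFD against HFD, 1 in HFD against NFD) were the same under another pseudocount, floor, scaling or moderation, with 2 groups only, with a replicate block and with mRNA transcripts only, an alternative added after the data were seen. Leaving out a library gave 4 to 5, 0 to 2 and 1 to 2. Over all genes these ranges were 211 to 618, 0 to 64 and 90 to 298, beside 601, 0 and 316 with all libraries. Without a floor 289 genes passed in NAC_HFD against NFD and 168 in HFD against NFD, and with 2 groups only 188 passed in NAC_HFD against NFD. The replicate block gave 406, 3 and 225 genes and changed no call of the 10 genes. Median-of-ratios scaling moved the split of genes in NAC_HFD against NFD to 363 higher and 269 lower, from 200 and 401, and in HFD against NFD to 274 and 121, from 249 and 67; quantile scaling gave 314 and 294, and 259 and 160, and rescaling to the gene table gave 183 and 496, and 188 and 99.

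Of 534 recomputed values of the 10 genes, 509 kept direction and call, 4 passed when a library was left out, 0 lost the threshold and 21 turned sign, none of them a called value. Lgr5 in NAC_HFD against HFD gave 0.0558 with median-of-ratios scaling, 0.138 with quantile scaling, 0.217 with mRNA transcripts only and -0.207 to 0.175 without a library. Lgr5 gave -0.414 to 0.0877 in NAC_HFD against NFD and -0.337 to 0.0934 in HFD against NFD without a library, and 0.0183 in NAC_HFD against NFD with mRNA transcripts only. Znrf3 in NAC_HFD against NFD gave 0.0462 with median-of-ratios scaling, 0.0696 with quantile scaling and -0.0899 to 0.0218 without a library. Glul in NAC_HFD against HFD gave 0.0104 with median-of-ratios scaling and -0.141 to 0.0064 without a library, and Tbx3 in HFD against NFD gave -0.0324 to 0.247 without a library. A floor of 5 TPM left Lgr5 and Axin2 untested. The cause of these shifts was not tested. Counts of overlap and the screen for a library far from the others used TPM as deposited and were not repeated under other scalings. With the median-of-ratios factors Gulo overlapped between HFD and NFD, and Lect2 between NAC_HFD and HFD.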

Other observations

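The share of Lgr5 TPM from transcripts in the deposited lncRNA table was 19.6% ± 6.03 in NAC_HFD, 38.0% ± 2.96 in HFD and 37.8% ± 13.7 in NFD (SD, n = 4 each), on totals of 0.840 to 4.8 TPM. For Znrf3 it was 37.7% ± 3.57 in NAC_HFD, 38.2% ± 1.38 in HFD and 38.8% ± 3.04 in NFD. Lect2, Axin2 and Gulo have no transcript in that table.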
